A study of Sus scrofa with 9 samples.

Results

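The genes described here encode proteins of oxidative phosphorylation in the sow mammary gland. They were chosen by symbol: every probe set annotated to 1 symbol that starts with NDUF, UQCR, SDHA to SDHD, COX4 to COX8 or ATP5, and those of CYCS and CYC1. The rule took in 83 of the 24123 probe sets on the array, which stand for 65 genes. Of these genes 36 fall under complex I, 5 under complex II, 2 under complex III, 7 under complex IV and 14 under complex V, and 1 is CYCS, the gene for cytochrome c. Of the 65 genes, 64 passed the filter on dim signals, and all counts below are over those 64. COX4, UQCRC and CYC1 are not analysed here. The prefixes also took in 5 genes whose products are not subunits of the finished complexes: NDUFAF1, NDUFAF2 and NDUFAF3 help to assemble complex I, SDHAF2 helps to mature complex II and ATP5S is a coupling factor of the ATP synthase. NDUFA4 was counted with complex I by its prefix, although its protein is now known as a subunit of complex IV.

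Oxidative phosphorylation makes most of the ATP of a secretory cell in the inner mitochondrial membrane. Complexes I and II feed electrons from NADH and succinate into ubiquinone, complex III passes them to cytochrome c and complex IV passes them on to oxygen. Complexes I, III and IV pump protons as they do so, and complex V, the ATP synthase, lets the protons flow back to make ATP. The mammary gland turns from growth in late pregnancy to the synthesis of milk protein, fat and lactose after parturition, which all consume ATP. Only subunits encoded in the nucleus are among the members, since the prefixes leave out the subunits made from mitochondrial DNA.

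The samples were biopsies of the anterior mammary glands of 6 Large White sows on a corn and soybean meal diet. Every sow was sampled in late pregnancy (day -17 relative to parturition, give or take 2 days), just after parturition (day 1) and at peak lactation (day 17). Equal volumes of RNA from 2 sows were mixed, so each day is represented by 3 pools, each hybridized to 1 Affymetrix porcine GeneChip, 9 arrays in all. A pool hides the difference between its sows, and whether pool numbers stand for the same sows on each day is not stated. The deposited value is the linear signal intensity of a probe set, and all signals below are in those units, with n = 3 pools per day. With 3 arrays a day an exact test of 1 gene cannot give a p under 0.1, so differences were tested with limma across all 9 arrays, with p values adjusted over all 15519 tested probe sets, and "rose" and "fell" are used for adjusted p values under 0.05. Same-numbered pools deviated together, more so for days 1 and -17 than for day 17 and either other day. A fit that also holds a term for each pool number, called the pool block below, is therefore given where it changes a call. For day 17 against day 1, the genes whose calls it changes are listed in the last section. Such p values measure the spread between pools, and the number of arrays limits their precision.

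Several facts about the arrays touch all results. Every array had a 2% trimmed mean signal near 500.1, so signals compare shares of what was hybridized on an array rather than amounts per cell. In tissue, fewer cells of a type and less RNA per cell cannot be told apart. The summed signal of 13 luminal epithelial markers was 71500 to 93650 on day -17, 189400 to 271000 on day 1 and 392400 to 393000 on day 17. These markers include milk protein genes, so the sum does not measure the number of luminal cells. On day 17 against day -17, 8 of the 13 rose and 2 fell. The 21 control probe sets for E. coli transcripts were brighter by a median of 0.44 on the log2 scale on day 1 and by 1.28 on day 17, each against day -17. Scaling the arrays to these controls therefore lowered all log2 differences, by 0.43 for day 1 against day -17, 0.87 for day 17 against day 1 and 1.30 for day 17 against day -17. The 3′ minus 5′ difference of the actin control probe sets was 3.01 to 3.12 on the log2 scale on day -17, 3.23 to 3.62 on day 1 and 4.01 to 4.23 on day 17, while that of GAPDH was 0.921 to 1.28 on all 9 arrays. The part of these differences in the results below was not tested.

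On day 1 against day -17, 17 of the 64 members rose and 1 fell, beside 15.3% and 10.4% of the 5670 genes tested. Their median log2 difference was 0.23, against -0.00082 over all genes. With scaling to the E. coli controls, however, 4 rose and 18 fell, beside 6.56% and 39.7% of all genes. The members' median was then -0.20, against -0.43 over all genes. With the pool block 20 rose and 2 fell, beside 17.1% and 13.5%. Calls in either direction made up 25.7% of all genes. On day 17 against day 1, 1 member rose and 4 fell, beside 8.02% and 8.57% of all genes, with a median of -0.10 against -0.04 over all genes, while the E. coli scaling gave 0 and 62, beside 0.723% and 76.6%. Calls in either direction made up 16.6% of all genes, and with the pool block 1 member rose and 9 fell, beside 9.59% and 11.6%. On day 17 against day -17, 17 rose and 5 fell, beside 23.8% in each direction over all genes, with medians of 0.13 and -0.03, and here too the E. coli scaling gave 0 higher and 62 lower, beside 3.16% and 83.8%. Calls in either direction made up 47.6% of all genes, and with the pool block 18 members rose and 6 fell, beside 25.2% and 26.6%. The pools of both days did not overlap for 30 members on day 1 against day -17, for 19 on day 17 against day 1 and for 40 on day 17 against day -17, beside 41.3%, 37.6% and 60.8% of all genes. An F test over the 3 days called 26 of 64 members, beside 47.8% of all genes. The shares for day 17 and for the F test lie near or below those of all genes.

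The 3 comparisons share arrays, and each gene's calls in them are therefore given side by side. In all, 36 members passed no pairwise test and 28 passed at least 1. The shares of all genes with these patterns are not given here, so the counts only describe the members. Among the 28 members with a call, the most frequent pattern was a rise on day 1 and on day 17, both against day -17, with no call between day 17 and day 1. It was found for 11 genes: NDUFV2, NDUFS1, NDUFA7, NDUFB2 and NDUFB11 of complex I, SDHAF2, UQCRB, CYCS, and ATP5H, ATP5J and ATP5L of complex V. ATP5G1 had the same 2 rises and fell between day 1 and day 17. NDUFA13, NDUFA4 and NDUFB3 rose on day 1 alone, and ATP5O, COX7C, NDUFC2, NDUFS3 and SDHD rose only in the comparison of day 17 with day -17. ATP5D, ATP5G2 and NDUFA12 fell only in that comparison, and the other 5 patterns were each shown by a single gene, UQCR10, COX7A2, SDHA, COX7A1 or ATP5G3. All these directions hold for the deposited scaling, and under the E. coli scaling the difference turned sign for 32 of 64 members on day 1 against day -17, for 19 on day 17 against day 1 and for 42 on day 17 against day -17, which included 19 of the 45 calls. Of the 45 calls, 24 were kept in each of 9 fits that left out 1 array, and the arrays behind the other 21 are named with each gene.

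**Figure D1:**
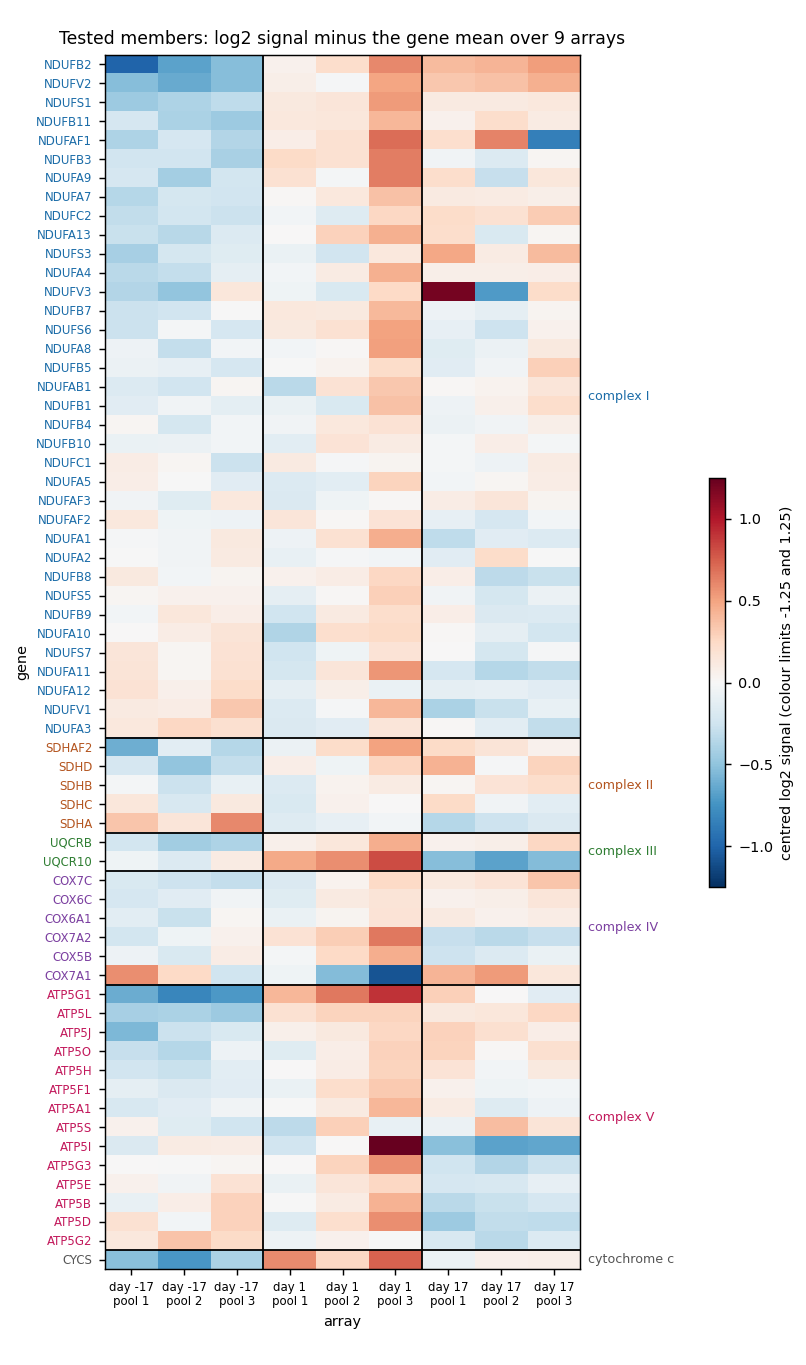
Log2 signal of each of the 64 tested members on the 9 arrays, centred on the gene's mean over the arrays, with genes as rows grouped by complex and arrays as columns in time order (day -17, day 1, day 17; pools 1 to 3). The third array of day 1 is the brightest of its day for 55 of 64 members, and colours stop at the ends of the scale, which ATP5I alone exceeds, on that array.

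Complex I oxidizes NADH through a peripheral arm that carries flavin and iron-sulfur clusters, and pumps protons through a membrane arm. Of its 36 members, 8 rose on day 1 against day -17 (22.2%, beside 15.3% of all genes) and none fell (beside 10.4%), with a median of 0.18, and under the E. coli scaling that median was -0.25. No member passed the test between day 17 and day 1 (beside 16.6% of all genes), and on day 17 against day -17, 7 rose and 1 fell, beside 23.8% of all genes in each direction, with medians of -0.10 and 0.11 that were -0.97 and -1.197 under the E. coli scaling. Over all genes that scaling gave medians of -0.43, -0.91 and -1.34 in the 3 comparisons. The 28 accessory subunits held 6 of the 8 rises on day 1.

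NDUFB2, a small accessory subunit of the membrane arm, had the largest rises in complex I. It had signals of 1472, 1847 and 2031 on day -17, 3046, 3422 and 4473 on day 1 and 3861, 3947 and 4214 on day 17. All pools of day 1 and of day 17 were above all pools of day -17, and the pools of day 17 lay within the range of day 1. It rose 2.04-fold on day 1 against day -17 (log2 difference 1.03 ± 0.17 SE, adjusted p = 0.00231). On day 17 it was 2.27-fold higher than on day -17 (log2 difference 1.18 ± 0.17 SE, adjusted p = 0.000385), whereas the E. coli scaling gave -0.12. Day 17 did not pass the test against day 1 (log2 difference 0.15, adjusted p = 0.567).

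The 3 core subunits of the NADH dehydrogenase module did not move alike. NDUFV2, an iron-sulfur protein of this module, had signals of 2429.7, 2271 and 2437 on day -17, 3714, 3501 and 4953 on day 1 and 4463, 4529 and 4794 on day 17. All pools of both later days were above those of day -17, and the rise was 1.69-fold on day 1 (log2 difference 0.75 ± 0.14 SE, adjusted p = 0.00415). On day 17 the rise against day -17 was 1.93-fold (log2 difference 0.95 ± 0.14 SE, adjusted p = 0.000452), turning to -0.35 under the E. coli scaling. Its second probe set also rose, by 0.61 on day 1 and 0.97 on day 17, and the third, dimmer one passed no test. NDUFS1, the largest iron-sulfur subunit, had signals of 1401, 1471 and 1543 on day -17, 2094, 2129 and 2769.9 on day 1 and 2078, 2074 and 2102 on day 17. It rose by 0.65 (adjusted p = 0.00679) on day 1 and by 0.50 (adjusted p = 0.0108) on day 17, both against day -17. NDUFV1, the flavin-binding subunit that takes the electrons from NADH, had signals of 1014, 1005 and 1184 on day -17, 835, 930.2 and 1250.4 on day 1 and 716, 776 and 879 on day 17. Its pools of day 17 lay below those of day -17 without passing the test (log2 difference -0.43, adjusted p = 0.0589), and it fell with the pool block (adjusted p = 0.0210, and adjusted p = 0.0362 with a random block).

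On the ubiquinone side of the peripheral arm, NDUFS3 and NDUFS7 are core subunits. NDUFS3 had signals of 1363, 1562 and 1636 on day -17, 1713, 1536 and 1996 on day 1 and 2545, 1949 and 2394 on day 17 on its brightest probe set. That probe set rose on day 17 against day -17 (log2 difference 0.59 ± 0.15 SE, adjusted p = 0.00943). Its other probe sets went the opposite way, by -0.39 (adjusted p = 0.298) and -1.79 (adjusted p = 0.00312), and the mean over the 3 probe sets was -0.53. The direction for NDUFS3 is therefore uncertain. NDUFS7 had log2 differences of -0.16, -0.03 and -0.20 in the 3 comparisons, and none passed the test.

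Among the accessory subunits, NDUFB3 had signals of 1993, 1999 and 1784 on day -17, 2788, 2685 and 3683 on day 1 and 2295, 2100.0 and 2404 on day 17. It is a subunit of the membrane arm and rose 1.57-fold on day 1 against day -17 (log2 difference 0.65 ± 0.14 SE, adjusted p = 0.00941). Its pools of day 17 lay between the other days, at -0.42 against day 1 (adjusted p = 0.0767) and 0.23 against day -17 (adjusted p = 0.195). A second probe set of NDUFB3 had the same signs and passed none of the tests. NDUFB11, another membrane arm subunit, had signals of 1354, 1195 and 1148 on day -17, 1727, 1729.9 and 2092 on day 1 and 1628, 1833 and 1684 on day 17. It rose by 0.58 on day 1 (adjusted p = 0.0106) and by 0.48 on day 17 (adjusted p = 0.0128), both against day -17, the call on day 17 being lost without day 17 pool 2 (adjusted p = 0.0503). NDUFC2, also of the membrane arm, had 3113, 3278 and 3200.3 on day -17, 3763, 3443 and 4618 on day 1 and 4531, 4391 and 4800.0 on day 17 and rose only on day 17 against day -17 (log2 difference 0.52 ± 0.12 SE, adjusted p = 0.00715).

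Weaker calls in complex I depended on single arrays. NDUFA7 had signals of 1653, 1823 and 1794 on day -17, 2144, 2326 and 2727 on day 1 and 2286, 2273 and 2233 on day 17 and rose by 0.44 on day 1 and 0.37 on day 17 against day -17, with the first call lost without any 1 pool of day -17 or without day 1 pool 2 or 3 (adjusted p = 0.0519 to 0.0846) and the second without any 1 pool of day -17 or day 17 (adjusted p = 0.0535 to 0.0871). NDUFA13, also known as GRIM-19, had signals of 3833, 3667 and 4146 on day -17, 4683, 5692 and 6314 on day 1 and 5404, 4074 and 4741 on day 17. It rose by 0.51 on day 1 (adjusted p = 0.0298), a call lost without any 1 pool of day -17 or without day 1 pool 2 or 3 (adjusted p = 0.0547 to 0.104). NDUFA4 had signals of 6278, 6456 and 7314 on day -17, 7734, 8471 and 10786 on day 1 and 8319, 8305 and 8393 on day 17. It rose by 0.42 on day 1 (adjusted p = 0.0433), and the call was kept only without day 1 pool 1 and lost in the other 8 such fits (adjusted p = 0.0576 to 0.131). Against day -17, day 17 gave 0.32 for NDUFA4 (adjusted p = 0.0674, and adjusted p = 0.0402 with the pool block). NDUFA12, an accessory subunit of the peripheral arm and the only complex I member that fell, had signals of 4306, 3960.1 and 4448 on day -17, 3514, 3984 and 3569 on day 1 and 3509, 3525 and 3423 on day 17. It fell by 0.28 on the log2 scale on day 17 against day -17 (adjusted p = 0.0495, but adjusted p = 0.0613 with the pool block), and only the fit without day 1 pool 1 kept the call among the 9 that left out 1 array (adjusted p = 0.0518 to 0.144 in the others).

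The remaining complex I members passed no test in the fit without a block. With the pool block, NDUFA9 rose on day 1 against day -17 (0.56, adjusted p = 0.0202, against 0.0606 without it), and so did NDUFB7 (0.39, adjusted p = 0.0354, against 0.0589). NDUFA1 had signals of 3735, 3666 and 4129 on day -17, 3619.6, 4312 and 5171 on day 1 and 3045, 3422 and 3358 on day 17 and log2 differences of 0.17, -0.40 and -0.23 in the 3 comparisons. Its dimmer probe set had the opposite sign on day 1 against day -17 and on day 17 against day 1, and it fell on day 1 against day -17 (-0.94, adjusted p = 0.0256), so the gene's direction is uncertain. NDUFAB1, the mitochondrial acyl carrier protein that is also a complex I subunit, differed by 0.18 on day 1 and 0.20 on day 17 against day -17, with SE 0.16. NDUFV3 varied widely between the pools of day 17 and overlapped in all 3 comparisons, with signals of 93.7, 86.2 and 133 on day -17, 117, 106 and 144 on day 1 and 277, 74.1 and 142 on day 17. The other 16 members with no call were NDUFA2, NDUFA3, NDUFA5, NDUFA8, NDUFA10, NDUFA11, NDUFB1, NDUFB4, NDUFB5, NDUFB8, NDUFB9, NDUFB10, NDUFC1, NDUFS5, NDUFS6 and NDUFS7.

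The assembly factors of complex I passed no test. NDUFAF1 had signals of 134, 152 and 137 on day -17, 187, 202 and 287 on day 1 and 204, 272 and 97.7 on day 17, and its pools on day 17 spread over a wider range than its day means. NDUFAF2 had 359, 316 and 314 on day -17, 364, 329.6 and 367 on day 1 and 305, 282 and 319 on day 17. NDUFAF3 had 606, 563 and 683 on day -17, 549, 601 and 631 on day 1 and 663, 691 and 639 on day 17. The day means of NDUFAF2 and NDUFAF3 stayed close together: their log2 differences lay between -0.23 and 0.16, each with an SE of 0.15 or 0.14. The 2 probe sets of NDUFAF1 had opposite signs for day 17 against day 1, at -0.33 and 0.40.

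**Figure D2:**
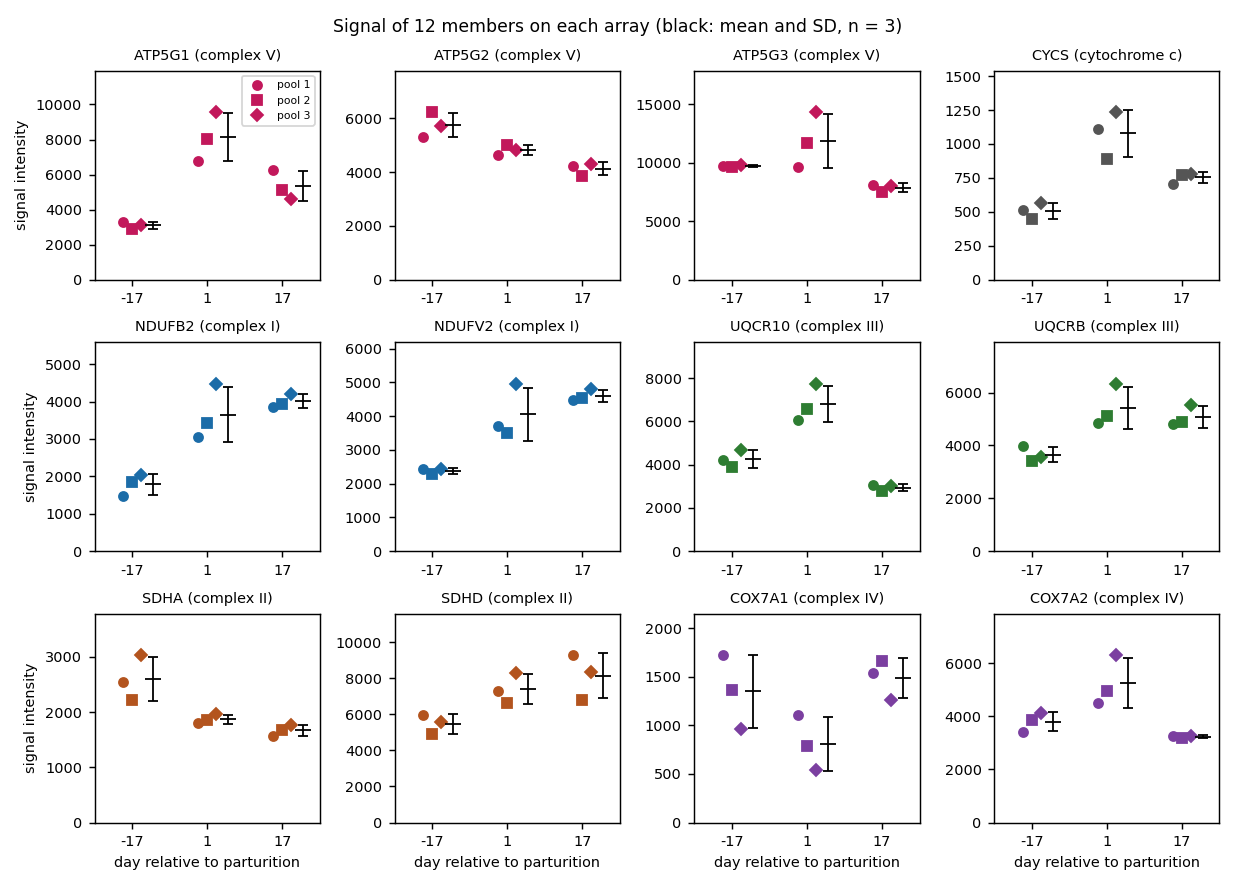
Signal intensity (linear scale) of 12 members on each array, one panel per gene, with days -17, 1 and 17 on the x axis, points for the 3 pools and a line for the mean. NDUFB2, NDUFV2, CYCS and ATP5G1 are higher on both later days than on day -17 (the E. coli scaling turned their day 17 differences below 0), UQCR10 and COX7A2 have their highest signals on day 1, and SDHA is highest on day -17.

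Complex II, succinate dehydrogenase, is both an enzyme of the citric acid cycle and an entry point for electrons. Its 4 subunits and the factor SDHAF2 gave 1 rise and 1 fall on day 1 against day -17, no call between day 17 and day 1, and 2 rises and 1 fall on day 17 against day -17. Calls in the 3 comparisons made up 25.7%, 16.6% and 47.6% of all genes. The flavoprotein SDHA carries the active site for succinate and had signals of 2553, 2224 and 3029 on day -17, 1795, 1863 and 1958 on day 1 and 1565, 1676 and 1763 on day 17. All pools of day 1 and day 17 were below all pools of day -17. It fell by 0.46 on the log2 scale on day 1 (adjusted p = 0.0313) and by 0.63 on day 17 (adjusted p = 0.00371), both against day -17. The call on day 1 was lost without day -17 pool 1 or 3 or without any 1 pool of day 1 (adjusted p = 0.054 to 0.112). A dimmer SDHA probe set differed by 0.18 on day 1 and 0.00 on day 17, and with the mean over both probe sets neither fall passed the test (log2 differences -0.14 and -0.32).

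The other subunits of complex II differed from SDHA. SDHB, the iron-sulfur subunit, had signals of 5358, 4539 and 5128 on day -17, 4844, 5631 and 5868 on day 1 and 5556, 6156 and 6368 on day 17. It passed no test, with 0.12 on day 1 and 0.27 on day 17 (adjusted p = 0.0888) against day -17, while a dimmer probe set gave -0.20 and -0.17. SDHC, a membrane anchor, had 1533, 1209 and 1511 on day -17, 1219, 1442 and 1394 on day 1 and 1636, 1344 and 1267 on day 17. Its pools overlapped in all 3 comparisons, and no test was passed. SDHD, the other membrane anchor, had 5941, 4879.8 and 5587 on day -17, 7271, 6637 and 8288 on day 1 and 9264, 6811 and 8325 on day 17, with every pool of both later days above those of day -17. It rose 1.48-fold on day 17 against day -17 (log2 difference 0.57 ± 0.14 SE, adjusted p = 0.00902), turning to -0.74 under the E. coli scaling. On day 1 its difference from day -17 was 0.43 (adjusted p = 0.0502, and adjusted p = 0.0179 with the pool block). SDHAF2, which in yeast and human cells attaches the flavin to SDHA, had signals of 412, 576 and 492 on day -17, 598, 739 and 892 on day 1 and 742, 705 and 653 on day 17. It rose by 0.58 on day 1 (adjusted p = 0.0422) and by 0.52 on day 17 (adjusted p = 0.0406) against day -17, and both calls were lost with the mean over its probe sets. Both were also lost without day -17 pool 1 or 3, day 1 pool 2 or any 1 pool of day 17, and the first without day 1 pool 3 as well (adjusted p = 0.0566 to 0.147 on day 1 and 0.0528 to 0.13 on day 17).

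Complex III hands electrons from ubiquinol to cytochrome c, and its 2 members here are small subunits. UQCRB, the ubiquinone-binding protein, had signals of 3963, 3424 and 3550.4 on day -17, 4849, 5098 and 6329 on day 1 and 4799, 4886 and 5548 on day 17. Both later days lay above day -17 in every pool. It rose 1.48-fold on day 1 (log2 difference 0.57 ± 0.13 SE, adjusted p = 0.0123) and 1.39-fold on day 17 (log2 difference 0.48 ± 0.13 SE, adjusted p = 0.0131), both against day -17, the second call being lost without day 17 pool 3 (adjusted p = 0.0542) and turning to -0.83 under the E. coli scaling. UQCR10, another small subunit, had signals of 4218, 3889.5 and 4696 on day -17, 6083, 6582 and 7732 on day 1 and 3035, 2759 and 3011 on day 17. No pool of one day overlapped with another day, and the order was day 1, day -17, day 17 from high to low. It rose 1.59-fold on day 1 against day -17 (log2 difference 0.67 ± 0.13 SE, adjusted p = 0.00463). On day 17 it was 2.31-fold lower than on day 1 (log2 difference -1.21 ± 0.13 SE, adjusted p = 0.00113) and 1.45-fold lower than on day -17 (log2 difference -0.54 ± 0.13 SE, adjusted p = 0.00598). The fall between day 17 and day 1 was the largest among the called members. Its 3 calls were kept in every fit that left out 1 array.

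CYCS, cytochrome c, carries electrons from complex III to complex IV in the space between the membranes. Its signals were 517, 447 and 564 on day -17, 1113, 886 and 1232 on day 1 and 706, 774 and 778 on day 17. All pools of day 1 were above all pools of day 17, which were above all pools of day -17. It rose 2.10-fold on day 1 against day -17 (log2 difference 1.07 ± 0.16 SE, adjusted p = 0.00156), under the E. coli scaling as well (0.64). On day 17 it was 1.48-fold higher than on day -17 (log2 difference 0.57 ± 0.16 SE, adjusted p = 0.0148), a call lost without day -17 pool 2 (adjusted p = 0.0563) and turning to -0.73 under the E. coli scaling. Between day 17 and day 1 the difference was -0.50 and did not pass the test (adjusted p = 0.0610), and with the pool block CYCS fell (adjusted p = 0.0420).

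Complex IV, cytochrome c oxidase, reduces oxygen. Of 6 members tested, 1 rose on day 1 against day -17, 1 rose and 1 fell on day 17 against day 1, and 1 rose on day 17 against day -17. These calls made up 16.7%, 33.3% and 16.7% of the 6, beside 25.7%, 16.6% and 47.6% of all genes. COX7A1 and COX7A2 encode the muscle-type and the widely expressed isoform of one subunit. COX7A2 had signals of 3408, 3854 and 4133 on day -17, 4518, 4941 and 6296 on day 1 and 3263, 3165 and 3272 on day 17. Its pools of day 1 were above those of both other days. It rose by 0.46 on day 1 against day -17 (adjusted p = 0.0373), a call kept only without day 1 pool 1 and lost in the other 8 fits that left out 1 array (adjusted p = 0.0543 to 0.118). On day 17 it was 1.61-fold lower than on day 1 (log2 difference -0.69 ± 0.14 SE, adjusted p = 0.0122).

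COX7A1 had the opposite sign between day 17 and day 1. It had signals of 1719.7, 1359.5 and 965 on day -17, 1101, 787 and 544 on day 1 and 1539.6, 1662 and 1263 on day 17, and on days -17 and 1 they differed widely between pools. It rose 1.90-fold on day 17 against day 1 (log2 difference 0.93 ± 0.27 SE, adjusted p = 0.0477). That call was lost without day -17 pool 2, day 1 pool 2 or 3 or any 1 pool of day 17 (adjusted p = 0.0623 to 0.136), and the E. coli scaling lowered the difference to 0.05. On day 1 against day -17 the difference was -0.75 with overlapping pools (adjusted p = 0.0676), and with the pool block it fell (adjusted p = 0.00893). Of 11 skeletal muscle markers on the array, 9 were below the filter. The summed signal of all 11 was 1546 to 2671 on day 17, against 3162 to 3862 on day 1. The summed signal of 10 adipocyte markers was 36510 to 37350 on day 17, against 20880 to 29810 on day 1. The list's median log2 difference was -0.80, however, with 2 markers higher and none lower, beside 8.02% and 8.57% of all genes. The part of other cell types in the COX7A1 signal was not tested.

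Of the other complex IV members, COX7C alone passed a test. COX7C had signals of 11507, 11005 and 10698 on day -17, 11622, 13586 and 15623 on day 1 and 14279, 14779 and 16739 on day 17. It rose on day 17 against day -17 (log2 difference 0.46 ± 0.12 SE, adjusted p = 0.0119), a call lost without day 17 pool 3 (adjusted p = 0.052), and a second, dim probe set had the opposite sign (-0.81, adjusted p = 0.0678), as had the mean over both (-0.17). COX6A1, the isoform outside heart and muscle, had signals of 7762, 7001 and 8663 on day -17, 8033, 8699.7 and 9596 on day 1 and 9189, 8797 and 9085 on day 17 and no call. COX5B and COX6C also had no call, with differences on day 1 against day -17 of 0.28 and 0.18. COX8H, the heart-type isoform, had signals of 8.28, 7.53 and 7.58 on day -17, 30.0, 24.7 and 175 on day 1 and 125, 35.4 and 16.5 on day 17, below the filter of 82.1 to 94.2 per array on 7 of 9 arrays. It was not tested.

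Complex V has a catalytic head, a central and a peripheral stalk and a ring of c subunits in the membrane. Of its 14 members, 4 rose on day 1 against day -17, 2 fell on day 17 against day 1, and 5 rose and 2 fell on day 17 against day -17, with medians of 0.30, -0.22 and 0.11 that were -0.13, -1.09 and -1.19 under the E. coli scaling. Over all genes that scaling gave -0.43, -0.91 and -1.34. The calls made up 28.6%, 14.3% and 50% of the 14, near the 25.7%, 16.6% and 47.6% of all genes.

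The c subunit of the ring is encoded by 3 genes that give the same mature protein with different import sequences, and their calls differed. ATP5G1 had signals of 3315, 2902 and 3095 on day -17, 6797, 8030.4 and 9546 on day 1 and 6277, 5125 and 4624 on day 17. No day overlapped with another. On day 1 it rose 2.60-fold against day -17 (log2 difference 1.38 ± 0.15 SE, adjusted p = 0.000331), the largest rise among the members, and under the E. coli scaling the rise was 0.95. It was 1.52-fold lower on day 17 than on day 1 (log2 difference -0.60 ± 0.15 SE, adjusted p = 0.0296), a call lost without day 1 pool 2 or 3 or day 17 pool 2 or 3 (adjusted p = 0.0668 to 0.106). Day 17 was still 1.71-fold above day -17 (log2 difference 0.77 ± 0.15 SE, adjusted p = 0.00268), whereas the E. coli scaling turned this to -0.53.

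ATP5G2 had signals of 5316, 6219.9 and 5732 on day -17, 4627, 5019.8 and 4825 on day 1 and 4226, 3843 and 4309 on day 17. Every pool of day 17 was below every pool of day 1, and these were below those of day -17. It fell by 0.48 on the log2 scale on day 17 against day -17 (adjusted p = 0.00481), a call kept in every fit that left out 1 array. The steps to day 1 (-0.25) and from day 1 to day 17 (-0.23) did not pass the test. ATP5G3 had signals of 9692, 9634 and 9777 on day -17, 9641, 11660.1 and 14312 on day 1 and 8133, 7475 and 8024 on day 17. It fell by 0.57 on day 17 against day 1 (adjusted p = 0.0222), a call lost without day 1 pool 2 or 3 or any 1 pool of day 17 (adjusted p = 0.0524 to 0.0778).

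ATP5L, subunit g at the foot of the stalk, had signals of 6296, 6346 and 6109 on day -17, 9556, 10154 and 10136 on day 1 and 9124, 9219.6 and 9996 on day 17. The pools of both later days were all above those of day -17. It rose 1.59-fold on day 1 (log2 difference 0.67 ± 0.09 SE, adjusted p = 0.00105) and 1.51-fold on day 17 (log2 difference 0.59 ± 0.09 SE, adjusted p = 0.000705) against day -17, the second turning to -0.71 under the E. coli scaling. Its 2 dimmer probe sets passed no test, and one of them was at -0.01 on day 17. ATP5I, subunit e, had signals of 751, 914 and 908 on day -17, 722, 852 and 3503 on day 1 and 593, 536 and 544 on day 17, so that 1 pool of day 1 stood far above the rest, and no test was passed.

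In the peripheral stalk, ATP5J, coupling factor 6, had signals of 1473, 1806 and 1913 on day -17, 2272, 2374 and 2599 on day 1 and 2657, 2505 and 2312 on day 17. It rose by 0.49 on day 1 (adjusted p = 0.0248, lost without day -17 pool 1 or day 1 pool 2 or 3, adjusted p = 0.0555 to 0.0826) and by 0.53 on day 17 (adjusted p = 0.00829), both against day -17. ATP5H, subunit d, rose by 0.34 and 0.30 in the same comparisons (adjusted p = 0.0474 and 0.0451). The first was lost without any 1 array other than day 1 pool 1 (adjusted p = 0.0604 to 0.148), and the second without any 1 pool of day -17, day 1 pool 2 or day 17 pool 1 or 3 (adjusted p = 0.0564 to 0.135). ATP5O, the protein that joins the stalk to the head, rose on day 17 against day -17 (log2 difference 0.40 ± 0.14 SE, adjusted p = 0.0374), a call lost without day -17 pool 1 or 2 or day 17 pool 1 or 3 (adjusted p = 0.0912 to 0.121). ATP5F1, subunit b, passed no test (0.30, -0.16 and 0.14).

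In the head and central stalk, ATP5D, the delta subunit, had signals of 2201, 1886 and 2349.7 on day -17, 1728, 2228 and 2881 on day 1 and 1404, 1556 and 1550.1 on day 17. It fell by 0.51 on the log2 scale on day 17 against day -17 (adjusted p = 0.0392), a call lost without day -17 pool 1 or 3, day 1 pool 2 or any 1 pool of day 17 (adjusted p = 0.0505 to 0.121). ATP5B, the catalytic beta subunit, had 7253, 8150.3 and 9419 on day -17, 7716, 8290.3 and 10454 on day 1 and 6123, 6376 and 6681 on day 17. All its pools of day 17 were below those of the other days, at -0.36 against day -17 (adjusted p = 0.0540), and with the pool block it fell (adjusted p = 0.0178). ATP5A1 and ATP5E, the alpha and epsilon subunits, passed no test (0.09 and -0.24 on day 17 against day -17). ATP5S had signals of 771, 666 and 625 on day -17, 592, 911 and 697 on day 1 and 705, 967 and 830.1 on day 17 on its brighter probe set and no call. Its other probe set fell on day 1 (-0.77, adjusted p = 0.0138) and on day 17 (-0.60, adjusted p = 0.0210) against day -17, so the direction of ATP5S is uncertain.

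Set side by side under the deposited scaling, the 5 complexes had medians of 0.18, 0.12, 0.62, 0.23 and 0.30 for complexes I to V on day 1 against day -17, all above the -0.00082 of all genes. The medians on day 17 against day 1 were -0.10, 0.06, -0.65, 0.05 and -0.22, and on day 17 against day -17 they were 0.11, 0.27, -0.03, 0.19 and 0.11. Under the E. coli scaling complex III alone kept a positive median on day 1 (0.19), and all others in the 3 comparisons were below 0. The medians of all genes under that scaling were -0.43, -0.91 and -1.34, and all 5 complexes lay above the first of these. With quantile normalization complexes II and IV were at -0.036 and -0.0062 on day 1 against day -17, below the 0.035 of all genes. Complex III rests on 2 genes and complex II on 5, so their medians are those of few genes. The standard deviation of the per-array medians between pools of a day was 0.098 to 0.13 over the 5 complexes. Differences between complexes were not tested.

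**Figure D3:**
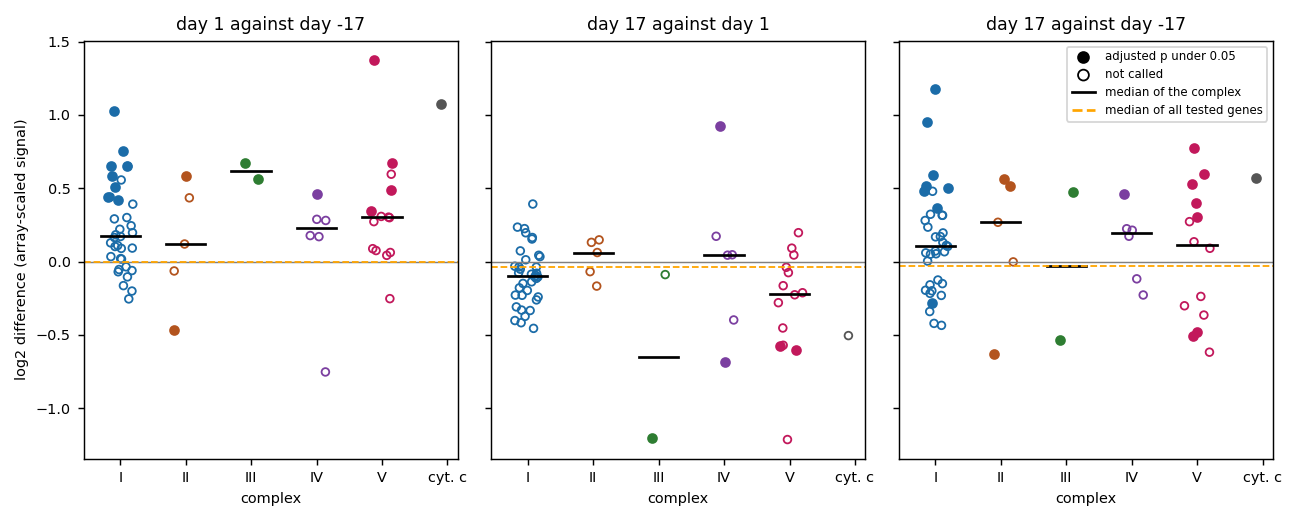
Log2 difference of each tested member by complex in the 3 comparisons, with a point per gene and a bar at the median of each complex. On day 1 against day -17 the members lay between -0.25 and 1.03 in complex I and between -0.46 and 0.58 in complex II. Their ranges were 0.57 to 0.67 in complex III, -0.75 to 0.46 in complex IV and -0.25 to 1.38 in complex V.

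Pools of 1 day differed in the same direction for most members. On day 1 the third pool was the brightest for 55 of 64 members (85.9%), against 38.4% of all genes, and the first for 2. The members' median centred log2 signal was -0.12, -0.16 and -0.05 in the 3 pools of day -17, -0.05, 0.11 and 0.29 in those of day 1 and 0.02, -0.05 and 0.04 in those of day 17. Without day 1 pool 3, 10 members rose on day 1 against day -17 and none fell, beside 10.1% and 5.31% of all genes. Without day 1 pool 1, 25 rose, beside 18.5% of all genes, so the calls over all genes moved as well. What sets the third pool apart was not tested.

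**Figure D4:**
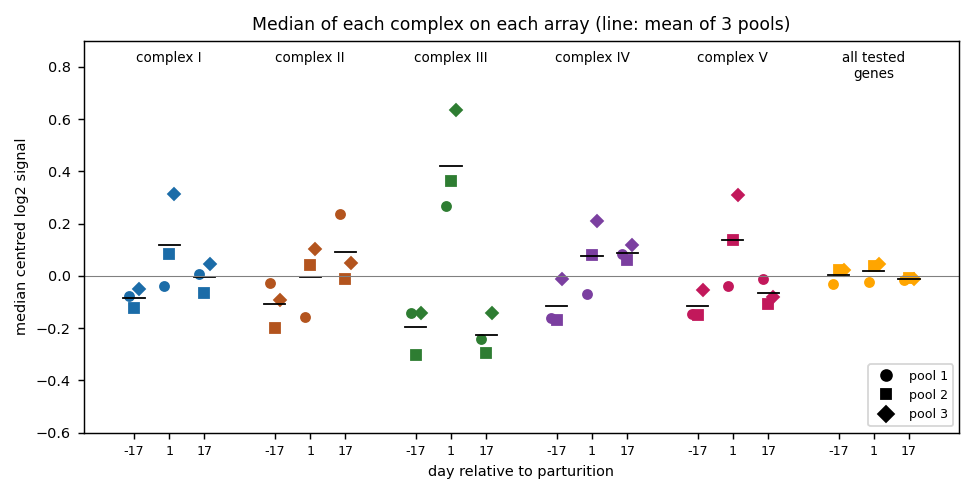
Median over the members of each complex of the log2 signal centred on the gene's mean, on the 9 arrays in time order, with all tested genes as a further group. Points are pools, and a line marks the mean of the 3 pools of each day. In complexes I, II, III, IV and V alike the third array of day 1 is the highest of its day, while the median of all genes stays within 0.05 of 0.

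Ratios of 2 members on the same array do not depend on how the array was scaled, and show unequal change within a complex. The pairs were chosen after the values had been seen, so the ratios are a description with no test. ATP5G1 over ATP5G2 was 3.09-fold higher on day 1 and 2.38-fold higher on day 17, each against day -17, with no overlap between the pools. ATP5G1 over ATP5G3 was 2.15-fold and 2.11-fold higher in the same comparisons, again without overlap. UQCRB over UQCR10 was 2.17-fold higher on day 17 than on day 1 and differed 0.93-fold on day 1 against day -17, where the pools overlapped. In complex II, SDHB over SDHA was 1.87-fold and SDHD over SDHA 2.29-fold higher on day 17 than on day -17. All ratios use the brightest probe set of each gene. In that comparison a dimmer SDHA probe set differed by 0.00 and a dimmer SDHB probe set by -0.17, so these 2 ratios depend on the probe set. NDUFV2 over NDUFV1, subunits of one module, was 1.81-fold higher on day 1 and 2.61-fold higher on day 17 than on day -17. ATP5L over ATP5B was 1.95-fold higher on day 17 than on day -17. Dimmer ATP5L probe sets were at -0.01 and 0.57 in that comparison, so this ratio depends on the probe set as well. COX7A2 over COX7A1 was 3.05-fold lower on day 17 than on day 1, and its pools overlapped in both comparisons with day -17.

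**Figure D5:**
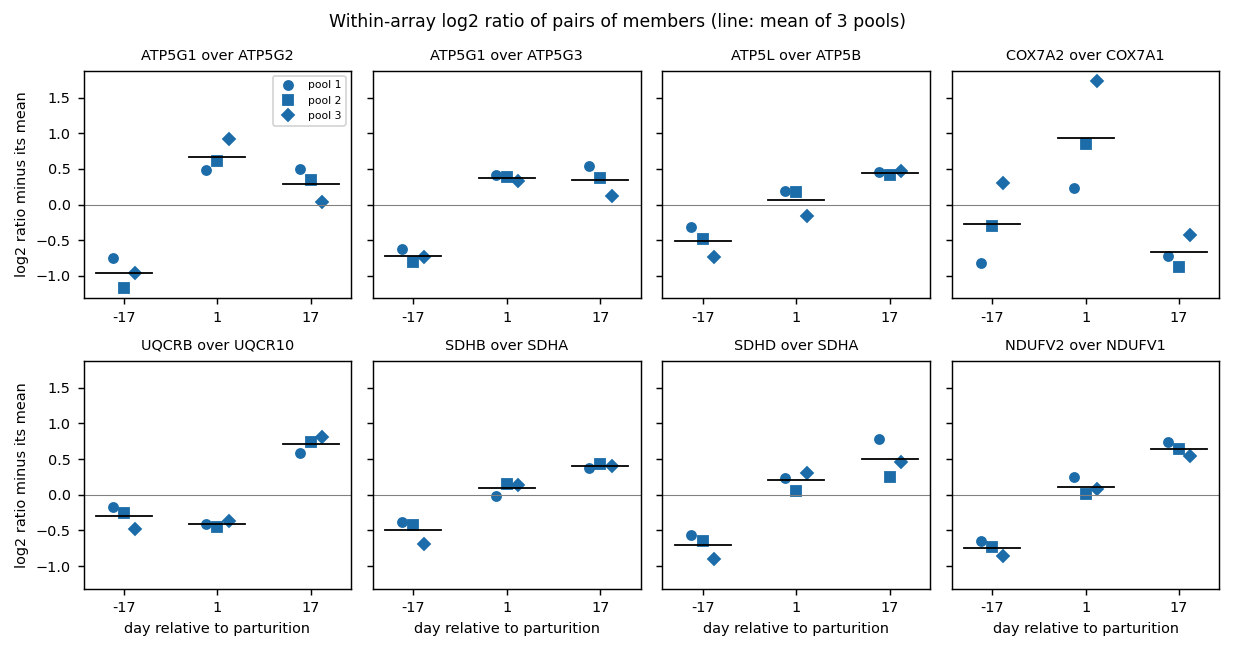
Log2 ratio of 2 members on the same array, centred on its mean over the 9 arrays, for 8 pairs, with points for the 3 pools of each day and a line for the mean. ATP5G1 over ATP5G2 and NDUFV2 over NDUFV1 are higher on both later days, and UQCRB over UQCR10 is higher on day 17 alone.

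Other genes of mitochondrial energy metabolism were read from lists chosen by function. Their directions are those of the deposited scaling, and the E. coli scaling lowers every log2 difference by 0.43 on day 1 against day -17, by 0.87 on day 17 against day 1 and by 1.30 on day 17 against day -17. Of 19 citric acid cycle and pyruvate entry genes, 1 rose and 1 fell on day 1 against day -17. On day 17, 1 fell against day 1, and 3 rose and 3 fell against day -17. The called share of this list lay below that of all genes in each comparison (25.7%, 16.6% and 47.6% of all genes). Malate dehydrogenase MDH2 rose by 0.58 (adjusted p = 0.0436) and pyruvate carboxylase PC fell by 1.69 (adjusted p = 0.0483) on day 1 against day -17. PC had signals of 4595, 805 and 2949.8 on day -17, 1181, 449 and 616 on day 1 and 627, 613 and 508 on day 17, so that it varied widely between the pools of day -17 and overlapped between day 1 and day -17. DLST, the E2 subunit of oxoglutarate dehydrogenase, fell by 0.49 on day 17 against day 1 (adjusted p = 0.0342), and on day 17 against day -17 the NADP-linked isocitrate dehydrogenase IDH2 rose by 0.79 (adjusted p = 0.0210) and PC fell by 1.94 (adjusted p = 0.0157).

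Of 19 genes of fatty acid beta-oxidation, 2 rose and 3 fell on day 1 against day -17, 2 rose and 2 fell on day 17 against day 1, and 2 rose and 5 fell on day 17 against day -17. Called shares of this list were 26.3%, 21.1% and 36.8%, beside 25.7%, 16.6% and 47.6% of all genes. ACADM, the medium-chain acyl-CoA dehydrogenase, rose by 1.23 (adjusted p = 0.000584) on day 1 and by 1.44 (adjusted p = 7.72e-05) on day 17 against day -17, while HADH fell by 0.85 on day 1 (adjusted p = 0.0124). The short-chain enzyme ACADS rose by 0.81 on day 17 against day 1 (adjusted p = 0.00748) and the long-chain enzyme ACADL fell by 1.00 (adjusted p = 0.0122), and ACADL fell by 1.56 on day 17 against day -17 (adjusted p = 0.000242).

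Of 12 genes that exchange ADP, ATP, phosphate and protons, 2 rose and 2 fell on day 1 against day -17, 2 fell on day 17 against day 1, and 2 rose and 3 fell on day 17 against day -17. That is 33.3%, 16.7% and 41.7% of the list, beside 25.7%, 16.6% and 47.6% of all genes. The outer membrane channels VDAC1, VDAC2 and VDAC3 diverged. VDAC2 had signals of 2566, 2475 and 2750.4 on day -17, 4734, 5501 and 6910.3 on day 1 and 4625, 4695 and 4345 on day 17 and rose by 1.12 on day 1 (adjusted p = 0.000584) and 0.81 on day 17 (adjusted p = 0.00123) against day -17. VDAC3 had 3083, 2891 and 2968 on day -17, 1951, 1863 and 2249 on day 1 and 1214, 1562 and 1376 on day 17 and fell by 1.11 on day 17 against day -17 (adjusted p = 0.000134). VDAC1 fell by 0.69 on day 17 against day 1 (adjusted p = 0.0143). One of the falls on day 1 was that of CKMT2, a mitochondrial creatine kinase, which passed the filter through day -17 alone. Its signals were 91.3 to 122 on day -17, 22.1 to 32.5 on day 1 and 34.7 to 67.9 on day 17, and those of days 1 and 17 all lay below the filter level, so the size of its difference is not given.

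Regulators and assembly factors outside the prefixes were fewer on the array. Of 6 genes of mitochondrial biogenesis, 2 fell on day 1 and 2 on day 17, each against day -17, beside 10.4% and 23.8% of all genes. None passed the test between day 17 and day 1, where PPRC1 had the smallest p (adjusted p = 0.0765) with signals of 306, 558 and 478 on day -17, 507, 461 and 604 on day 1 and 463, 196 and 196 on day 17. TFAM, which packages and transcribes mitochondrial DNA, had signals of 1348, 1469 and 1381 on day -17, 882, 874 and 765 on day 1 and 993, 788 and 815 on day 17 and fell by 0.74 on day 1 against day -17 (adjusted p = 0.00437). Among the calls on day 17 was that of the coactivator PPARGC1A, with signals of 140.3, 274 and 382 on day -17, 57.5, 90.6 and 117 on day 1 and 70.7, 7.33 and 92.4 on day 17. Its signals of day 17 all lay below the filter level, so the size of its difference is not given. Of 23 complex IV assembly genes listed, 4 were annotated on the array. These 4 rose on day 17 against day -17 and 2 of them on day 1, beside 23.8% and 15.3% of all genes, with medians of 0.86 and 0.55. The first is smaller than the 1.30 by which the E. coli scaling lowers it, and the second is larger than its shift of 0.43. TACO1, a translational activator of COX1, rose by 1.10 on day 17 against day -17 (adjusted p = 0.00322) and by 1.08 on day 1 (adjusted p = 0.00819). CMC1 rose by 0.64 on day 17 against day 1 (adjusted p = 0.0357). Of 5 complex I assembly genes outside the prefixes, ECSIT rose by 0.63 on day 17 against day 1 (adjusted p = 0.0319) and by 0.81 against day -17 (adjusted p = 0.00283), and TMEM186 had the smallest p on day 1 against day -17 (0.72, adjusted p = 0.0861). BCS1L, which inserts the Rieske protein into complex III, fell by 0.77 on day 17 against day 1 (adjusted p = 0.0215), and the other 2 genes of its list had no call in any comparison.

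Markers of other cell types moved between the days as well. Of 13 luminal markers 8 rose on day 1 against day -17 (beside 15.3% of all genes), and 8 rose and 2 fell on day 17 against day -17 (beside 23.8% in each direction). Of 8 fibroblast markers 7 fell on day 17 against day -17 (beside 23.8% of all genes), with summed signals of 25700 to 30120 on day 17, against 57950 to 78450 on day -17. The summed signal of 7 myoepithelial and smooth muscle markers was 36100 to 58120 on day 17, against 25610 to 32230 on day -17, and that of 6 macrophage markers was 5370 to 7347, against 10990 to 12720. Summed signals of 7 endothelial markers, 1 of them below the filter, were 5854 to 7097 on day 17 and 5780 to 9170 on day -17. Those of 7 T and NK cell markers, 3 of them below the filter, were 545.6 to 765.7 and 609.3 to 953.7, and those of 2 erythrocyte markers 589.1 to 716.7 and 1551 to 2883. No marker was listed at 0. The part of cell composition in the members' signals was not tested.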

How the data were processed

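RNA of pig mammary biopsies was measured on 9 arrays, 3 pools for each of 3 days. The deposited values are linear signal intensities, for which the submitters' processing notes name MAS5 as the authors' tool, in a version not given in the sources used here. All 9 columns were mapped to samples by their labels. No test included the 124 Affymetrix controls. Of 24123 probe sets, 10099 have 1 gene symbol in the platform annotation, 198 have several and 13826 have none, and none was named from a probe set with several, which left out 4 that matched the rule. All 83 member symbols equal the RefSeq (Sscrofa11.1) symbol.

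Log2 intensities without a pseudocount were fitted with limma 3.58.1 in R 4.3.3 (lmFit, eBayes with an intensity trend) over all 9 arrays with day as the only term, and Benjamini-Hochberg adjustment ran over 15519 probe sets that reached the 40th percentile of the array (82.14 to 94.19) in at least 3 of 9 arrays. All p values are two-sided limma values, and the fit was tested on simulated data. A gene is represented by whichever of its tested probe sets was brightest on average over the 9 arrays (log2). 11 member genes have several tested probe sets.

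Same-numbered pools correlated by 0.235 to 0.506 in their deviations from the day means for days 1 and -17, by 0.105 to 0.130 for days 17 and -17 and by 0.0960 to 0.107 for days 17 and 1, so the pool number was taken to pair arrays in the first 2 of these comparisons. The pairing comes from these data, since the labels do not say whether a number marks the same sows.

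The members, lists and markers were chosen with earlier results of these data known. Genes named with all 9 values are, in each complex and comparison, the 2 called genes with the largest rise and the 2 with the largest fall, or the gene with the smallest p where none was called. CYCS, the subunits of complex II, tissue isoforms, assembly factors, members below the filter and members whose probe sets differ in sign are also named. From each other list, the called genes with the largest rise and fall are named. Other members were named after their values were seen. Alternatives changed the scaling, pseudocount, filter, intensity trend, arrays in the fit, pool block and probe sets. Promoter sequences were not used here, so planned motif counts were not made.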

Additional observations from a re-analysis of the deposited data

How the results depend on the processing

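The precision is limited by the 3 arrays a day, and where pools lie near the threshold a call rests on single arrays. Of the 45 calls of member genes, 45 were kept with a pseudocount of 16, 45 with the stricter filter, 45 with a random replicate block, 44 with a fixed one, 42 with median centring, 39 with the mean over probe sets, 38 with quantile normalization, 37 with 6 arrays alone, 36 with no filter, 30 with no intensity trend and 14 with E. coli scaling. Leaving out 1 array at a time gave 10 to 25 rises and 0 to 1 falls on day 1 against day -17, 0 to 1 rises and 2 to 11 falls on day 17 against day 1, 12 to 19 rises and 3 to 10 falls on day 17 against day -17, and 17 to 36 calls in the F test. The 10 rises came without day -17 pool 1 and without day 1 pool 3 (beside 11.7% and 10.1% of all genes), and the 25 without day 1 pool 1 (beside 18.5%). The 11 falls on day 17 against day 1 came without day 1 pool 1 (beside 9.17% of all genes). The 10 falls on day 17 against day -17 came without day 1 pool 1 or pool 3 (beside 25.9% and 23.6%). The medians on day 1 against day -17 were lowest without day 1 pool 3 and highest without day 1 pool 1 for complex I (0.0958 to 0.25), complex IV (0.14 to 0.34, or 0.1435 to 0.335) and complex V (0.15 to 0.41), and that of complex II lay between 0.051 (without day -17 pool 2) and 0.20 (without day 1 pool 1). Between day 17 and day 1 they were -0.18 without day 1 pool 1 and -0.019 without day 1 pool 3 for complex I, -0.034 and 0.11 without the same arrays for complex IV, and -0.047 without day 17 pool 1 and 0.11 without day 17 pool 3 for complex II. On day 17 against day -17 the median of complex I was 0.064 without day 17 pool 3, that of complex IV 0.11 without day -17 pool 3 and that of complex V 0.061 without day 17 pool 1, and that of complex III lay between -0.084 (without day -17 pool 2) and 0.0054 (without day 17 pool 2). The cause of these shifts was not tested.

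On day 1 against day -17, 11 members rose with 6 arrays alone (beside 11.9% of all genes) and 3 fell with quantile normalization (beside 9.58%). With median centring, with no intensity trend or with 6 arrays alone 0 fell (beside 6.83%, 8.57% and 7.37%). Between day 17 and day 1, 0 rose with quantile normalization, with no filter or with no intensity trend (beside 7.57%, 6.51% and 6.17% of all genes). In that comparison 7 fell with quantile normalization and 2 with no intensity trend (beside 8.25% and 6.03%). On day 17 against day -17, 12 fell with quantile normalization, 3 with median centring, 3 with no intensity trend and 11 with 6 arrays alone (beside 22.9%, 20.4%, 22.3% and 25.5% of all genes). With the pool number as a replicate block, 2 members fell on day 1 against day -17 with either block, beside 13.5% (fixed) and 13% (random) of all genes. On day 17 against day 1, where same-numbered pools correlated by 0.0960 to 0.107, 9 (fixed) or 7 (random) fell, beside 11.6% and 11%. In that comparison the fixed block gave adjusted p = 0.0206 for ATP5B, 0.0357 for ATP5D, 0.0427 for COX5B, 0.0420 for CYCS and 0.0474 for NDUFA1 by limma, and of the 45 calls the fixed block lost that of NDUFA12 alone.

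Median centring moved the median of all genes to 0.12 on day 1 against day -17, and the medians of complexes I, IV and V to 0.30, 0.35 and 0.42. Quantile normalization gave medians of -0.036, 0.48, -0.0062 and 0.11 for complexes II to V on day 1 against day -17, and of 0.084, -0.079 and -0.099 for complexes II, IV and V on day 17 against day -17. For all members and all genes it gave 0.10 and 0.035 in the first of these comparisons, and 0.080 and 0.0014 in the second. The median signal was 2523 over the members and 697.9 over all tested genes. The mean over a gene's probe sets gave -0.040 for complex II on day 1 against day -17, and 0.049, 0.028 and -0.037 for complexes II, IV and V on day 17 against day -17. It also turned NDUFS3 to -0.45 on day 1 and -0.53 on day 17, and COX7C to -0.17 on day 17, each against day -17.

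Scaling to the E. coli controls gave 4 rises and 18 falls on day 1 against day -17, 0 and 62 on day 17 against day 1, 0 and 62 on day 17 against day -17, and 63 calls in the F test. The medians of complexes I to V were -0.25, -0.31, 0.19, -0.20 and -0.13 on day 1 against day -17, -0.97, -0.81, -1.52, -0.83 and -1.09 on day 17 against day 1, and -1.197, -1.04, -1.33, -1.11 and -1.19 on day 17 against day -17. Those of all genes were -0.43, -0.91 and -1.34. Over all 64 members, 32, 19 and 42 differences turned sign in the 3 comparisons. The values given next are those of the members named by rule and called under either scaling. On day 1 against day -17 those that turned negative were -0.087 for ATP5H, -0.011 for NDUFA4 and -0.31 for SDHB. Between day 17 and day 1 they were -0.83 for ATP5J, -0.78 for ATP5O, -0.68 for ATP5S, -0.83 for COX6A1, -0.70 for COX7C, -0.71 for NDUFAF3 and -0.72 for NDUFB2. They were also -0.65 for NDUFC2, -0.48 for NDUFS3, -0.68 for NDUFV2, -0.73 for SDHB, -0.81 for SDHC and -0.74 for SDHD. On day 17 against day -17 those named members that turned negative had -0.53 for ATP5G1, -1.0 for ATP5H, -0.77 for ATP5J, -0.71 for ATP5L, -0.90 for ATP5O, -1.03 for ATP5S and -1.09 for COX6A1. They were also -1.13 for COX7A1, -0.84 for COX7C, -0.73 for CYCS, -1.02 for NDUFA13, -0.98 for NDUFA4, -0.94 for NDUFA7 and -0.99 for NDUFAF1. They were also -1.19 for NDUFAF3, -0.82 for NDUFB11, -0.12 for NDUFB2, -1.07 for NDUFB3, -0.79 for NDUFC2, -0.80 for NDUFS1 and -0.71 for NDUFS3. They were also -0.35 for NDUFV2, -0.79 for SDHAF2, -1.04 for SDHB, -0.74 for SDHD and -0.83 for UQCRB. These shifts follow from the construction of the scaling, which lowers all log2 values of an array by one amount, and whether the controls or the deposited scaling is closer to amounts per cell was not tested.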
